A study of Mus musculus with 6 samples.

Results

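Integrins are cell surface receptors made of 1 alpha and 1 beta subunit, and the 10 genes described here encode the subunits that Schwann cells and the stromal cells of nerve are known to use: Itga1, Itga2, Itga3, Itga5, Itga6, Itga7, Itgav, Itgb1, Itgb4 and Itgb8. They were chosen by name from the 24062 genes of the deposited count tables, which hold 27 integrin subunit genes in all. No measured value enters this rule, but the names were picked with earlier results of these data known. Bulk RNA-seq was done on dorsal root ganglion or tumor tissue of mice on a C57BL/6-I129 background, with 3 libraries per group. The first group was Nf1fl/fl;DhhCre, a neurofibroma model in which the Nf1 gene is deleted by Cre under the Dhh promoter, that is, in the Schwann cell lineage. The second carried the same Nf1 and DhhCre alleles and was in addition floxed for Runx1 and Runx3, the genes of a pair of RUNX transcription factors (labelled Rx1flfl;Rx3fl/fl;DhhCre, with the Nf1 allele given in the protocol text). These are called the Nf1fl/fl;DhhCre and the Runx1/3-floxed libraries below. The age and sex of the mice and whether tissue of several mice was pooled are not given in the sources used here.

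The alpha subunit largely sets what an integrin binds. ITGA1 and ITGA2 pair with ITGB1 as collagen receptors, ITGA3, ITGA6 and ITGA7 are laminin-binding subunits, ITGA5 pairs with ITGB1 as the classical fibronectin receptor, and ITGAV binds proteins with the RGD tripeptide together with several beta subunits, among them ITGB8, with which it activates latent TGF-beta. ITGB4 pairs with ITGA6 alone. In peripheral nerve, laminin receptors with ITGB1 are needed for Schwann cells to sort axons, and the ITGA6 and ITGB4 pair appears as Schwann cells myelinate.

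Several facts about the libraries bear on every value. The totals ran from 12439296 to 16682194 counts, so that 3 counts made 0.179 to 0.247 CPM (counts scaled to a common library size), far below the level of any of the 10 genes. The tissue label is dorsal root ganglion for the Nf1fl/fl;DhhCre libraries and neurofibroma tumor for the Runx1/3-floxed ones, so the tissue label and the genotype cannot be told apart. The label is itself in doubt, since the study's text calls the former tumors and the latter ganglia or tumors, and 23 sensory neuron markers summed to 1990 to 3490 CPM in the libraries labelled ganglion but to 7710 to 16400 CPM in those labelled tumor. DhhCre acts in 1 lineage, and the other cells of the tissue keep the floxed genes intact. Runx1 was read at 131, 141 and 172 CPM in the 3 Nf1fl/fl;DhhCre libraries and 84.0, 78.9 and 185 CPM in the Runx1/3-floxed ones, so that the third library labelled as floxed had the highest Runx1 level of all. By its label that library was also the only one of another sequencing run. Some titles and deposited tables differ, however, so it is uncertain whether that run belongs to floxed replicate 2 or 3. Runx3 was lower in each library labelled as floxed than in each of the others (log2 fold change −0.79, limma-voom adjusted p = 0.104). Skeletal muscle genes summed to 23700 CPM in Nf1fl/fl;DhhCre replicate 2 and to 59000 CPM in Runx1/3-floxed replicate 2, against 158 to 757 CPM in the other libraries. The tissue is a mixture, in which fewer cells of a type and less RNA per cell cannot be told apart.

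Of the 10 integrin genes, 2 were lower and 1 was higher in the Runx1/3-floxed libraries past both thresholds of the study (adjusted p below 0.05 in limma-voom and a change of more than 2-fold). Itga1 and Itga5 fell and Itga3 rose. Across all 15652 genes tested, 5.36% were lower and 8.03% higher by this rule. By the adjusted p alone, Itgav and Itgb1 also fell, which made 4 lower and 1 higher, beside 8.22% lower and 11.1% higher of all genes. The same 5 genes were those whose groups did not overlap, as was the case for 20.5% of all genes in the lower and 21.8% in the higher direction. The median log2 fold change of the 10 was −0.62, beside 0.02 for all genes tested. Itga2, Itga6, Itga7, Itgb4 and Itgb8 did not pass the test. The counts depend on single libraries. Past both thresholds 1257 of all genes were higher and 839 lower, against 181 and 181 without Nf1fl/fl;DhhCre replicate 1, 535 and 498 without its replicate 3, and 692 and 326 without Runx1/3-floxed replicate 2. Without Runx1/3-floxed replicate 3, the library in which Runx1 was not low, they were 1122 and 473. Of the 10 integrin genes, 0 were higher and 1 was lower without Nf1fl/fl;DhhCre replicate 1, without its replicate 3 and without Runx1/3-floxed replicate 3. Without Runx1/3-floxed replicate 1 there were 0 higher and 2 lower, and without its replicate 2 there was 1 in each direction.

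**Figure D1:**
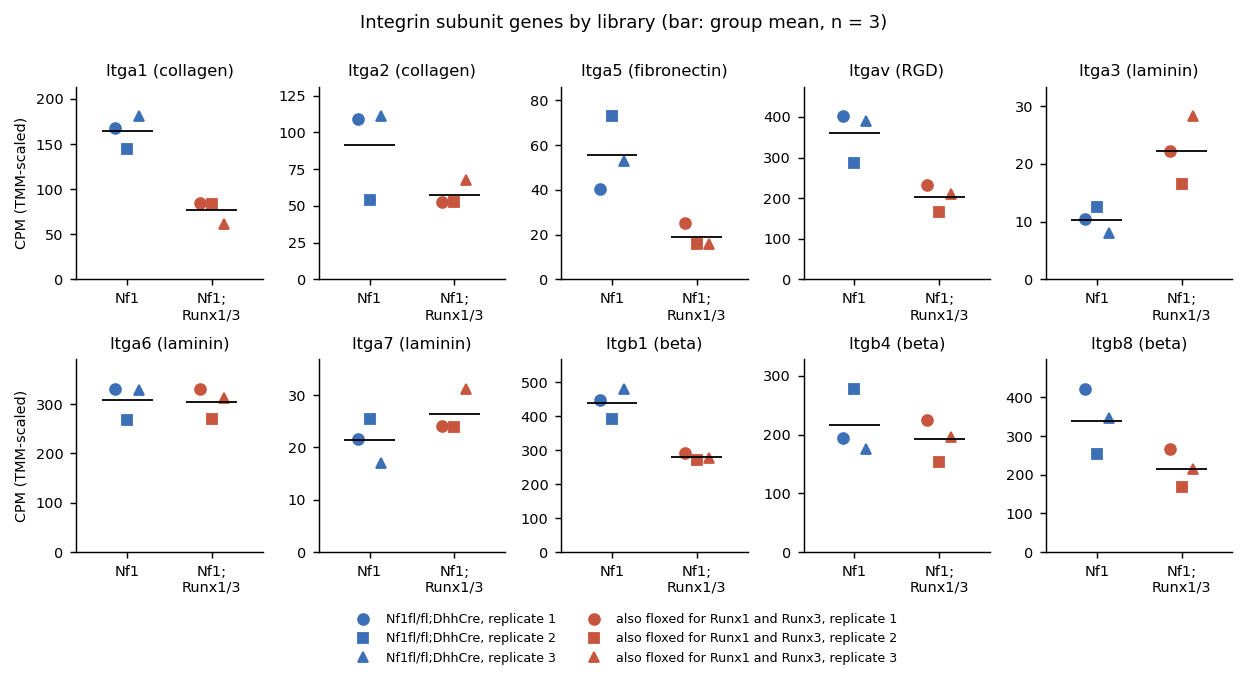
CPM (TMM-scaled) of each gene in each library, with the group mean as a bar (n = 3) and the class of the subunit in parentheses; squares mark the libraries rich in muscle genes. The groups are apart for Itga1, Itga5, Itgav and Itgb1, which are lower in the Runx1/3-floxed libraries, and for Itga3, which is higher.

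Among the collagen-binding subunits, Itga1 (chr13:114953096-115101964, minus strand, GRCm38) stood at 168, 145 and 181 CPM in the Nf1fl/fl;DhhCre libraries, against 84.4, 83.7 and 61.3 CPM in the Runx1/3-floxed ones. Each floxed library was thus well below the lowest of the other group. The means were 165 ± 18.2 and 76.5 ± 13.2 CPM (SD, n = 3 each), a 2.18-fold lower level (log2 fold change −1.12 ± 0.17 SE, limma-voom adjusted p = 0.0108). This was the smallest adjusted p among the 10 genes. Without Nf1fl/fl;DhhCre replicate 1 the adjusted p was 0.0564 with a log2 fold change of −1.08, and without Runx1/3-floxed replicate 3 the log2 fold change was −0.96, under 2-fold, with an adjusted p of 0.0195, so either ended the call past both thresholds. An annotated gene on the same strand, Gm49395, shares 685 exon bases with Itga1, and its reads cannot be set apart here.

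Itga2 (chr13:114833081-114932100, minus strand), the other collagen-binding subunit and a neighbour of Itga1 on the chromosome, stood at 109, 53.7 and 111 CPM in the Nf1fl/fl;DhhCre libraries. Its values in the Runx1/3-floxed libraries were 52.6, 52.6 and 67.5 CPM. The groups overlapped because Nf1fl/fl;DhhCre replicate 2, a library rich in muscle genes, was close to the floxed ones. Its log2 fold change was −0.59 with a 95% interval of −1.30 to 0.12 (limma-voom adjusted p = 0.213). Without that library it was −0.89 with an adjusted p of 0.0134, and without both libraries rich in muscle genes −0.86 with an adjusted p of 0.0335.

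The fibronectin receptor subunit Itga5 (chr15:103344286-103366763, minus strand) had the largest change of the 10. It stood at 40.3, 73.0 and 53.0 CPM in the Nf1fl/fl;DhhCre libraries, against 25.0, 15.6 and 15.7 CPM in the Runx1/3-floxed ones. The highest floxed library was below the lowest of the other group, although, relative to their mean, the Nf1fl/fl;DhhCre libraries differed among themselves more than for Itga1. The means were 55.4 ± 16.5 and 18.8 ± 5.40 CPM (SD, n = 3 each), with a log2 fold change of −1.57 ± 0.29 (SE; 2.96-fold lower, limma-voom adjusted p = 0.0159). The adjusted p was 0.0523 without Nf1fl/fl;DhhCre replicate 3 (log2 fold change −1.54) and 0.0540 without Runx1/3-floxed replicate 2 (−1.46).

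Itgav (chr2:83724397-83806916, plus strand), the RGD-binding subunit with the most partners, was among the most strongly read of the 10 genes. Its CPM values were 402, 287 and 391 in the Nf1fl/fl;DhhCre libraries and 233, 166 and 209 in the Runx1/3-floxed ones. In both groups replicate 2 was the lowest, yet the groups did not overlap. This was a log2 fold change of −0.83 ± 0.19 (SE, n = 3 each; limma-voom adjusted p = 0.0254), less than 2-fold. This call rested on most of the libraries. The adjusted p was 0.0896 and 0.0768 without Nf1fl/fl;DhhCre replicates 1 and 3 (log2 fold changes −0.71 and −0.72), and 0.0724 and 0.0533 without Runx1/3-floxed replicates 2 and 3 (−0.69 and −0.85). Itgav shares 634 exon bases with an annotated neighbour on the other strand, Gm13684, and whether the counting used strand is not stated.

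The laminin-binding subunits did not share this direction. Itga6 (chr2:71745616-71858416, plus strand), the partner of both Itgb1 and Itgb4, stood at 331, 268 and 328 CPM in the Nf1fl/fl;DhhCre libraries, against 331, 269 and 312 CPM in the Runx1/3-floxed ones. The library values covered the same range in both groups. Between the groups the log2 fold change was −0.02 with a 95% interval of −0.34 to 0.30 (limma-voom adjusted p = 0.934), which excludes a change of 2-fold in either direction. Its sign depended on the libraries used: it was 0.06 without Nf1fl/fl;DhhCre replicate 1 or 3 and 0.07 without Runx1/3-floxed replicate 2.

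Itga3 (chr11:95044474-95076801, minus strand), a laminin-binding subunit that pairs with Itgb1, was the 1 gene of the 10 that rose. It was also the lowest in CPM in the Nf1fl/fl;DhhCre libraries, while in the Runx1/3-floxed ones Itga5 had a lower mean (18.8 against 22.3 CPM). Itga3 stood at 10.5, 12.5 and 8.08 CPM in the Nf1fl/fl;DhhCre libraries and 22.2, 16.5 and 28.3 CPM in the Runx1/3-floxed ones. Every floxed library was above every other, with the highest value in replicate 3. The log2 fold change was 1.11 ± 0.27 (SE, n = 3 each; 2.16-fold higher, limma-voom adjusted p = 0.0324). The adjusted p stayed below 0.05 in 2 of the 6 fits that left out a library. It was 0.0845 and 0.0761 without Nf1fl/fl;DhhCre replicates 1 and 3 (log2 fold changes 1.16 and 0.98), and 0.0549 and 0.0723 without Runx1/3-floxed replicates 1 and 3 (1.15 and 0.91). Without both libraries rich in muscle genes it was 0.0259 (1.47). Sensory neuron markers moved in the same direction as Itga3: 21 of the 23 listed genes were higher past both thresholds, and their summed level given above was highest in the same floxed library, replicate 3. Floxed replicate 2 had a higher neuron sum than replicate 1 (8770 against 7710 CPM) but a lower Itga3 level (16.5 against 22.2 CPM). In the Nf1fl/fl;DhhCre libraries the neuron sums (2210, 3490 and 1990 CPM) had the same order as Itga3. Without Nf1fl/fl;DhhCre replicate 1 the count of neuron markers was 2, and without both libraries rich in muscle genes it was 20. None of the listed neuron markers was at 0, and their part in the Itga3 value was not tested.

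Itga7 (chr10:128933818-128958282, plus strand), a laminin-binding subunit that is abundant in skeletal muscle, stood at 21.6, 25.5 and 17.1 CPM in the Nf1fl/fl;DhhCre libraries, against 24.1, 23.9 and 31.2 CPM in the Runx1/3-floxed ones. The groups overlapped. Itga7 had a log2 fold change of 0.32 with a 95% interval of −0.17 to 0.81 (limma-voom adjusted p = 0.321), and it was 0.54 with an adjusted p of 0.194 without both libraries rich in muscle genes. Within the floxed group the library with the highest muscle sum, replicate 2, was nearly equal in Itga7 to replicate 1 (23.9 against 24.1 CPM). Among the Nf1fl/fl;DhhCre libraries the one with the highest muscle sum had the highest Itga7 level. The part of muscle in the Itga7 values was not tested.

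Of the beta subunits, Itgb1 (chr8:128685654-128733200, plus strand), the common partner of most alpha subunits named here, stood at 447, 393 and 481 CPM in the Nf1fl/fl;DhhCre libraries. In the Runx1/3-floxed libraries it stood at 293, 271 and 276 CPM, a narrow range well below the other group. The log2 fold change was −0.65 ± 0.12 (SE, n = 3 each; limma-voom adjusted p = 0.0151), from 440 ± 44.6 to 280 ± 11.7 CPM (SD). Without Nf1fl/fl;DhhCre replicates 1 and 3 the adjusted p was 0.0670 and 0.0548, with log2 fold changes of −0.61 and −0.54.

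Itgb8 (chr12:119158022-119238802, minus strand), the partner of Itgav in the activation of latent TGF-beta, stood at 422, 253 and 347 CPM in the Nf1fl/fl;DhhCre libraries, against 267, 167 and 214 CPM in the Runx1/3-floxed ones. Only Nf1fl/fl;DhhCre replicate 2 overlapped with the floxed libraries, below replicate 1 of them. The log2 fold change of −0.65 equalled that of Itgb1 but had a larger standard error, 0.24 against 0.12, and an adjusted p of 0.0953 in limma-voom (95% interval −1.20 to −0.10, not adjusted for the number of genes). It passed without Nf1fl/fl;DhhCre replicate 2 (−0.81, adjusted p = 0.0371), in DESeq2 (−0.67, 0.0434) and with sample quality weights (−0.78, 0.0413).

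Itgb4 (chr11:115974709-116008412, plus strand) stood at 195, 278 and 175 CPM in the Nf1fl/fl;DhhCre libraries, against 225, 154 and 196 CPM in the Runx1/3-floxed ones. The groups overlapped, and the libraries rich in muscle genes were the highest of the one group and the lowest of the other. Its log2 fold change was −0.16 with a 95% interval of −0.66 to 0.34 (limma-voom adjusted p = 0.637). The sign turned without Nf1fl/fl;DhhCre replicate 2 (0.08) and without both libraries rich in muscle genes (0.20). Meanwhile 11 of 14 markers of myelinating Schwann cells were higher past both thresholds and 1, Gldn, was lower (−1.06, limma-voom adjusted p = 0.0182). Itgb4 shares 537 exon bases with B230344G16Rik on the other strand.

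**Figure D2:**
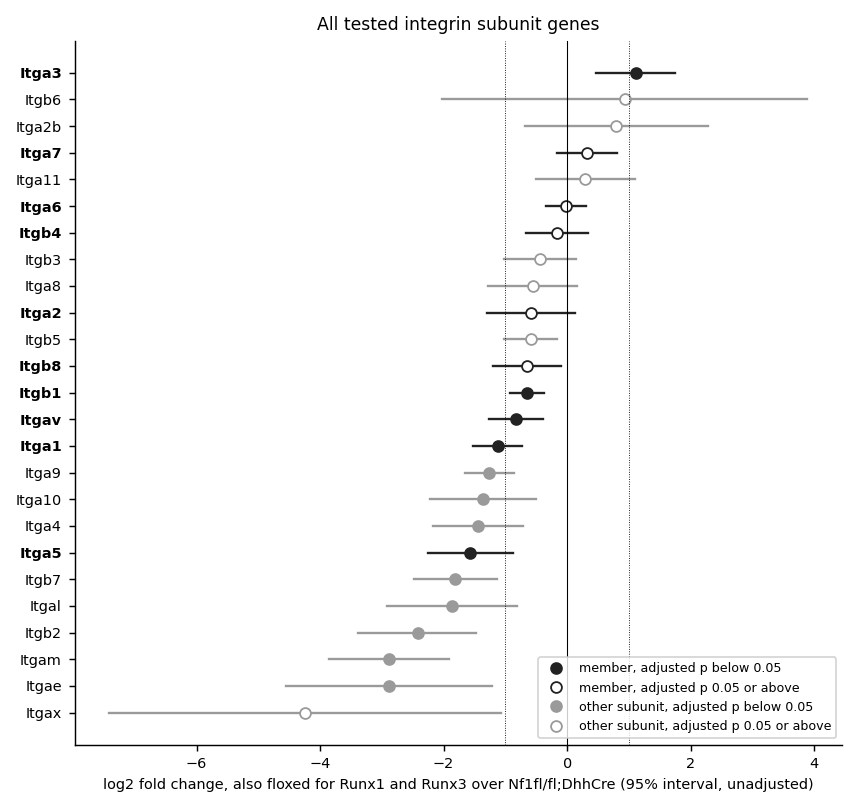
Log2 fold change of each tested integrin subunit gene between the Runx1/3-floxed and the Nf1fl/fl;DhhCre libraries (3 each), with the 95% interval of the fit, not adjusted for the number of genes; dotted lines mark 2-fold, and filled points an adjusted p below 0.05 (limma-voom). The 10 genes described here are in bold and lie between Itga5 at −1.57 and Itga3 at 1.11.

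Levels were compared between genes per kb of exon (CPM per kb of the union of annotated exons). On this scale Itgb1 was the highest in both groups, at 108 ± 10.9 in the Nf1fl/fl;DhhCre and 68.6 ± 2.86 in the Runx1/3-floxed libraries (SD, n = 3 each). In the Nf1fl/fl;DhhCre libraries a group of 4 genes followed, Itga6 at 34.2 ± 3.93, Itgav at 33.5 ± 5.89, Itgb8 at 30.8 ± 7.66 and Itgb4 at 30.8 ± 7.77, which did not differ beyond their spread. Below these lay Itga2 at 12.8 ± 4.55, Itga5 at 11.2 ± 3.35 and Itga1 at 8.85 ± 0.978, again within each other's spread. Itga7 at 2.64 ± 0.522 and Itga3 at 1.81 ± 0.383 were the lowest.

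In the Runx1/3-floxed libraries the upper group spread out. Itga6 kept its level per kb at 33.7 ± 3.50, Itgb4 stood at 27.3 ± 5.10, and Itgb8 and Itgav were at 19.5 ± 4.51 and 18.9 ± 3.20. Itga2 followed at 8.07 ± 1.20. The 4 lowest, Itga1 at 4.11 ± 0.708, Itga3 at 3.91 ± 1.03, Itga5 at 3.81 ± 1.09 and Itga7 at 3.26 ± 0.508, could not be ordered beyond their spread. With the length of the longest coding transcript in place of all exons, Itgb1 stood at 115 ± 11.7 and Itga6 at 71.7 ± 8.23 CPM per kb in the Nf1fl/fl;DhhCre libraries. In the floxed ones they were at 73.4 ± 3.06 and 70.5 ± 7.32 on that scale and did not differ beyond their spread, so the gap between them there depends on the length used. The group of 4 in the Nf1fl/fl;DhhCre libraries also depends on it, since with this length every library of Itga6 (62.2 to 76.8) was above those of Itgav (40.7 to 57.0), Itgb8 (30.1 to 50.2) and Itgb4 (28.1 to 44.7).

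The share of each ligand class in the summed level of the 7 alpha subunits showed the same contrast within a library. This measure was set up after the values of the genes had been seen, and it is given as a description. The laminin-binding subunits made up 37.1, 38.1 and 35.5% of the sum in the Nf1fl/fl;DhhCre libraries and 52.9, 53.9 and 55.1% in the Runx1/3-floxed ones, 17.1 percentage points more on average. Itga6 supplied most of that share, with a level per kb that was nearly equal in both groups. The fibronectin and RGD-binding subunits Itga5 and Itgav went from 42.7 ± 2.17 to 29.8 ± 2.43% (SD, n = 3 each). The collagen-binding subunits Itga1 and Itga2 made up 20.4 ± 3.20 and 16.2 ± 1.74%, with overlapping values. The overlap was gone with the other length below (16.2 ± 1.98 and 11.7 ± 1.32%). With the longest coding transcript as the length, the laminin-binding share was higher in both groups, 46.5 ± 1.25 and 63.0 ± 1.10%, and the difference was 16.5 percentage points.

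**Figure D3:**
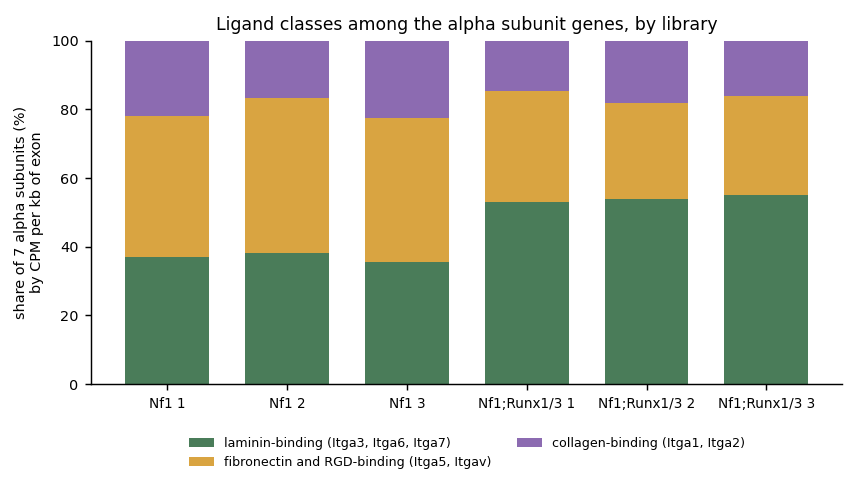
Share of each ligand class in the summed CPM per kb of exon of the 7 alpha subunit genes, one stacked bar per library and percent on the vertical axis. The laminin-binding share is 35.5 to 38.1% in the Nf1fl/fl;DhhCre (Nf1) libraries and 52.9 to 55.1% in the Runx1/3-floxed (Nf1;Runx1/3) ones.

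Ratios of 2 subunits within a library do not depend on how libraries are scaled. The log2 ratio of Itga6 to Itgb1 was −0.43, −0.55 and −0.55 in the Nf1fl/fl;DhhCre libraries and 0.17, −0.01 and 0.18 in the Runx1/3-floxed ones. The groups were apart by 0.63, with every floxed library higher. Itga7 to Itgb1 was likewise higher in every floxed library (difference 0.96), whereas Itga5 to Itgb1 (−0.90) and Itga1 to Itgb1 (−0.47) were lower in every floxed library. Each of these 4 had a two-sided exact permutation p of 0.1, the smallest that 3 against 3 libraries can give, and 0.2 after Benjamini-Hochberg adjustment over the 8 ratios. Since Itgb1 itself fell, 56.9% of all genes tested were higher relative to it in every floxed library and 5.62% lower, so that the higher ratios of Itga6 and Itga7 are shared with most genes. Relative to Itgb1, Itgb8 did not move on average (difference 0.00, exact permutation p = 1). Itgav to Itgb1 differed by −0.18 (exact permutation p = 0.4), and Itgb4 to Itgb1 by 0.49 (exact permutation p = 0.2), with overlapping values for both.

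The levels were also set against Schwann cells within each library, by the mean log2 CPM of 13 general Schwann cell markers, Sox10 among them. The median of their log2 fold changes was −0.12, and Sox10 differed by 0.10 (limma-voom adjusted p = 0.677), but S100b (1.52, adjusted p = 0.00598) and Fabp7 (1.87, adjusted p = 0.0113), which is also a satellite glia marker, rose past both thresholds and lift the mean in the floxed libraries. Relative to the marker mean, Itga5 differed by −1.66, Itga1 by −1.22, Itgav by −0.93, Itgb8 by −0.76 and Itgb1 by −0.75 on the log2 scale, and Itga3 by 0.99. For these 6 genes no library of the one group overlapped with the other (exact permutation p = 0.1, the smallest possible, and 0.167 after adjustment over the 10 genes). That is 5 lower and 1 higher, beside 24.3% of all genes tested that did not overlap in the lower and 15.1% in the higher direction on this measure. Itga2 (−0.70), Itga6 (−0.13), Itga7 (0.21) and Itgb4 (−0.26) overlapped. With Sox10 alone as the reference the differences of the 6 genes were alike in direction and again without overlap, and Itga2 (−0.69) and Itga6 (−0.12) did not overlap either, which made 7 lower and 1 higher beside 22.5% and 14.2% of all genes tested.

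**Figure D4:**
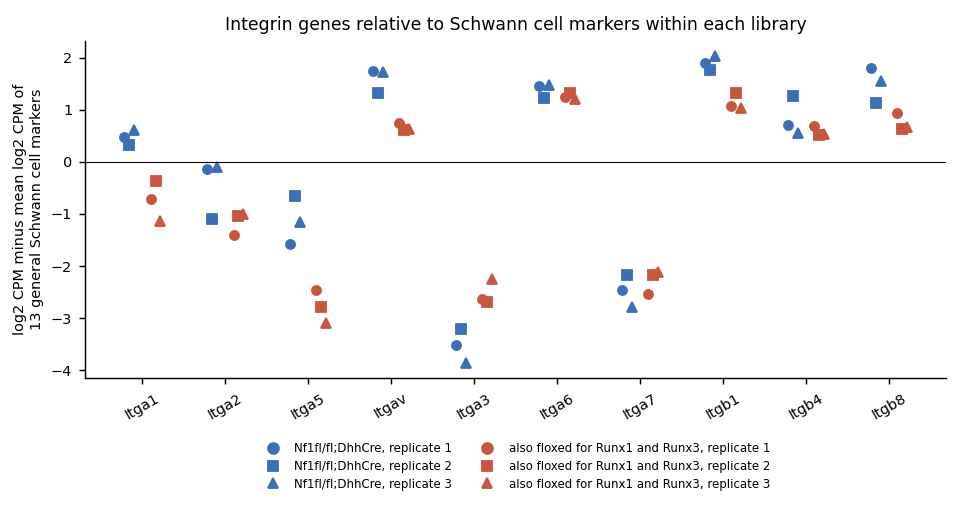
Log2 CPM of each gene minus the mean log2 CPM of 13 general Schwann cell markers in the same library, with one point per library. Itga5 lies between −1.57 and −0.66 in the Nf1fl/fl;DhhCre and between −3.10 and −2.47 in the Runx1/3-floxed libraries, while the points of Itga6 lie between 1.21 and 1.47 in all 6.

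Leukocyte integrins made up most of the other subunits that fell. Of the 17 other subunit genes in the tables, 15 had enough counts to be tested, and 8 of them were lower and 0 higher past both thresholds, with a median log2 fold change of −1.37. By limma-voom 0 were higher also at an unadjusted p below 0.05, and 0 by the adjusted p of edgeR and of DESeq2. Among leukocyte subunits 6 of 7 tested fell, and the seventh, Itgax, stood at −4.24 with no overlap between the groups and an adjusted p of 0.0672. Itgam, the alpha subunit of the complement receptor of macrophages and neutrophils, went from 468 to 936 CPM in the Nf1fl/fl;DhhCre libraries to 46.0 to 126 CPM in the floxed ones (log2 fold change −2.89, limma-voom adjusted p = 0.0100). Its partner Itgb2 (−2.42, adjusted p = 0.0128) and Itga4 (−1.44, adjusted p = 0.0220) moved with it. Of the 8 that are not leukocyte genes, Itga9 (−1.26, adjusted p = 0.00931) and Itga10 (−1.37, adjusted p = 0.0396), partners of Itgb1, fell. Itgb3 and Itgb5, further partners of Itgav, stood at −0.44 (95% interval −1.03 to 0.15) and −0.59 (−1.02 to −0.16) with adjusted p of 0.255 and 0.0629. Without Runx1/3-floxed replicate 3, the library in which Runx1 was not low, the count of other subunits that fell was 4, without Nf1fl/fl;DhhCre replicate 1 it was 2, and without both libraries rich in muscle genes 8.

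Of 34 tested genes for proteins that link integrins to the actin cytoskeleton and to signalling, 4 were lower and 0 higher past both thresholds, and the median log2 fold change was −0.12. Dab2, an endocytic adaptor that binds beta subunit tails, stood at −1.61 (limma-voom adjusted p = 0.0127) and Ptk2b, a kinase related to focal adhesion kinase, at −1.20 (adjusted p = 0.0467). The other two, named after their values were seen, were Fermt3 (−1.85, adjusted p = 0.0233) and Parvg (−2.83, adjusted p = 0.0330), both known mainly from blood cells. By the adjusted p alone 9 were lower, among them the integrin activator Tln1 (−0.47, adjusted p = 0.0493) and Pxn, the gene of paxillin (−0.67, adjusted p = 0.0360). Fermt2, the kindlin of most adherent cells, stood at 0.11 with a 95% interval of −0.19 to 0.40, and Ilk at −0.13 (−0.40 to 0.13). By limma-voom 2 were higher at an unadjusted p below 0.05, and 0 by the adjusted p of edgeR and of DESeq2. Without Runx1/3-floxed replicate 3 the number lower past both thresholds was 1, and without Nf1fl/fl;DhhCre replicate 1 it was 0. By the adjusted p alone, leaving out each library gave 0 to 7 lower, with 0 without Nf1fl/fl;DhhCre replicate 1. Without both libraries rich in muscle genes 4 were lower by the adjusted p.

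The ligands were described by the receptor class that binds them. For the collagen receptors, 4 of 16 collagen genes were lower past both thresholds and 10 by the adjusted p alone (median −0.93): Col5a2 (−1.57), Col11a1 (−1.32), Col1a2 (−1.09) and Col6a3 (−1.05), with limma-voom adjusted p between 0.0130 and 0.0488. For the fibronectin and RGD-binding receptors, 9 of 19 ligand genes were lower and 2 higher (median −1.05). Fn1, the gene of fibronectin itself, went from 3180, 2200 and 3780 CPM in the Nf1fl/fl;DhhCre libraries to 1120, 443 and 588 CPM in the floxed ones (−2.17, adjusted p = 0.0120), the same direction as its receptor subunit Itga5. Thbs2 (−2.62), Tnc (−2.51) and Postn (−2.15), genes of a thrombospondin, tenascin C and periostin, fell as well, while Edil3, which encodes an RGD protein, rose (1.69, adjusted p = 0.0169). Of the 9 genes for latent TGF-beta and its presentation, 5 were lower, with Ltbp1 at −2.03 (adjusted p = 0.00598), Nrros at −1.74, Lrrc32 at −1.45 and Tgfb1, a ligand whose latent form is bound by the Itgav and Itgb8 pair, at −1.42 (adjusted p = 0.0222). Leaving out each library in turn gave 0 to 10 collagens, 3 to 9 fibronectin and RGD ligands and 1 to 6 TGF-beta genes lower past both thresholds. The lowest counts came without Nf1fl/fl;DhhCre replicate 1 for the first 2 lists and without Runx1/3-floxed replicate 2 for the TGF-beta genes. Without both libraries rich in muscle genes the counts were 1, 8 and 5. By the adjusted p alone, the collagens lower were 0 without Nf1fl/fl;DhhCre replicate 1 and 3 without both libraries rich in muscle genes. The fibronectin and RGD ligands that were higher, Edil3 among them, also numbered 0 without Nf1fl/fl;DhhCre replicate 1.

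Laminin genes fell in part, and none of the laminin-binding alpha subunits was lower by the test. Of 10 tested laminin genes, 2 were lower and 0 higher past both thresholds (median −0.31). These were Lamc1 (−1.09, limma-voom adjusted p = 0.0116) and Lama2 (−1.04, adjusted p = 0.0151), chains of the main laminin of the Schwann cell basal lamina. The count was 0 without Nf1fl/fl;DhhCre replicate 1, without Runx1/3-floxed replicate 2 and without both libraries rich in muscle genes. By the adjusted p alone 4 were lower and 1 higher. The further ones, named after their values were seen, were Lamb2 (−0.91, adjusted p = 0.0173) and Lama4 (−0.74, adjusted p = 0.0188), which were lower, and Lama3 (0.95, adjusted p = 0.0368), which was higher. Without Nf1fl/fl;DhhCre replicate 1 these counts were 0 lower and 0 higher, and without both libraries rich in muscle genes 3 and 0. Lama3 also did not pass without Nf1fl/fl;DhhCre replicate 3 or without Runx1/3-floxed replicate 2 or 3. Among 12 genes of laminin receptors other than integrins, mainly the dystroglycan complex, 2 were higher and 0 lower past both thresholds (median 0.03), and Dag1, the gene of dystroglycan itself, stood at −0.29 (limma-voom adjusted p = 0.239). Of the 2, Drp2 went from 287, 293 and 345 CPM to 1330, 1100 and 1170 CPM (1.96, adjusted p = 0.00374) and Prx rose by 1.49 (adjusted p = 0.00596). DRP2 and periaxin link dystroglycan to the myelin sheath, and both genes are also on the myelinating Schwann cell list.

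**Figure D5:**
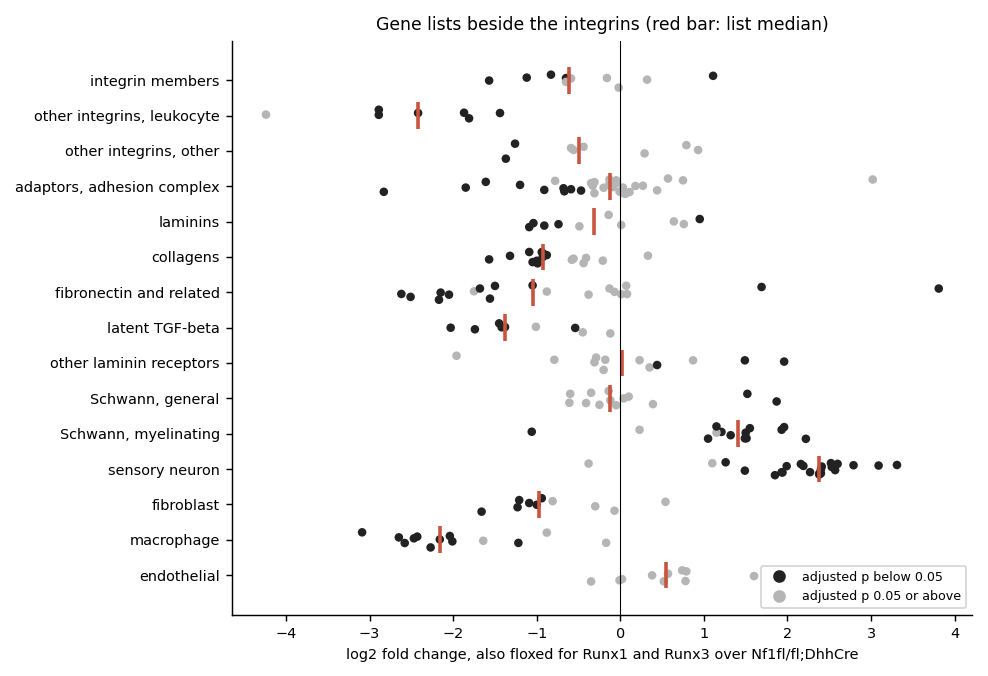
Log2 fold change of each tested gene in the integrin, ligand and cell type marker lists (Runx1/3-floxed over Nf1fl/fl;DhhCre), one point per gene with vertical jitter; dark points had an adjusted p below 0.05 in limma-voom, and red bars are list medians. The medians run from −2.42 for the leukocyte integrins to 2.38 for the sensory neuron markers, with −0.62 for the 10 genes described here.

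Markers of several cell types moved with the integrins that fell. Of 10 fibroblast markers 4 were lower past both thresholds (median −0.97, range −1.66 to 0.54). The summed level of the 10 was 9250 to 9980 CPM in the Nf1fl/fl;DhhCre and 3500 to 5760 CPM in the floxed libraries. Col1a1, Col1a2 and Col3a1 are on this list and also on the collagen list above, and Col1a2 is among the 4, so the lists are not separate observations. Fibroblasts are known to express Itga1, Itga5, Itgav and Itgb1, and Pdgfra, which defines them, fell by 1.23 on the log2 scale (limma-voom adjusted p = 0.0372). Of 13 macrophage markers 10 were lower (median −2.16), with sums of 975 to 1650 and 261 to 551 CPM, and none of the fibroblast or macrophage markers was at 0. Without Nf1fl/fl;DhhCre replicate 1 the fibroblast and macrophage counts were 1 and 0, without Runx1/3-floxed replicate 2 they were 2 and 4, and without both libraries rich in muscle genes 1 and 8. Fibroblast markers higher past both thresholds numbered 0 with all libraries and 0 to 1 without each library in turn. Without both libraries rich in muscle genes 1 was higher. The macrophage count was 6 without Nf1fl/fl;DhhCre replicate 3. Of 5 perineurial markers 2 were lower, Cldn1 (−1.99, adjusted p = 0.0133) and Ntn4 (−1.13, adjusted p = 0.0244), with sums of 619 to 1240 and 246 to 413 CPM (median −0.13). The list did not move as a whole, since its highest log2 fold change was 1.44, although 0 were higher by the test. The count of lower ones was 0 without Nf1fl/fl;DhhCre replicate 1 and 1 without any one other library except Runx1/3-floxed replicate 3, where it was 2. Of 7 tested T and NK cell markers 0 passed in limma-voom (2 were lower at an unadjusted p below 0.05, 2 by edgeR and 3 by DESeq2), with a median of −1.98 and sums of 14.6 to 50 and 4.03 to 7.33 CPM. Of 10 endothelial markers 0 passed the test in limma-voom (4 were higher at an unadjusted p below 0.05, 0 by edgeR and 2 by DESeq2), with a median of 0.54 and sums of 186 to 261 and 187 to 360 CPM. The part of these cell types in the lower integrin levels was not tested.

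Promoter sequences of the 3 genes past both thresholds are shown because RUNX proteins bind DNA at the sequences TGTGGT and TGCGGT. The RefSeq promoter table (GRCm38.p6, the build of mm10) had 7 of the 10 genes and lacked Itga6, Itga7 and Itgb4. Each run below is the 250 bases before an annotated start, on the strand of the gene and 5′ to 3′. The windows are chr11:95069199-95069448 for the downstream start of Itga3, chr15:103366792-103367041 for Itga5 and chr13:115101965-115102214 for Itga1, all on the minus strand. For Itga3 only the window that holds a match is printed, and the window before its upstream start, which holds none, is not shown. Capitals mark a match to TGTGGT or TGCGGT on either strand, and the motifs do not overlap each other.
Itga3: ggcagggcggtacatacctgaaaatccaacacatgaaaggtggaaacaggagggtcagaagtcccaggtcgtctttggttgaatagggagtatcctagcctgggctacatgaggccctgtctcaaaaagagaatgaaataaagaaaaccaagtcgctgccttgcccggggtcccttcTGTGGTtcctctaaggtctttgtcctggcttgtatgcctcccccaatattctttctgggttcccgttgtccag
Itga5: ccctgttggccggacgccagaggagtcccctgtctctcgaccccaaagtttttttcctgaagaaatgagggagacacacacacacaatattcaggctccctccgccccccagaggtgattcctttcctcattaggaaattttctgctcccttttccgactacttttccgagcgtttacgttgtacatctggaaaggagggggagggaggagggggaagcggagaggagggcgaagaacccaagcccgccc
Itga1: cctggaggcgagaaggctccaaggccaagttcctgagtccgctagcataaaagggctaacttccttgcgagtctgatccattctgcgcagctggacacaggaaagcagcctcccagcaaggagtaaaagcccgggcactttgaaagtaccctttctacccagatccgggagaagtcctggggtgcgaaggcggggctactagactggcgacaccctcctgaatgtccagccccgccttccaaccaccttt

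Among the windows of the 7 genes, which are 8 because Itga3 has a pair of annotated starts, the 1 match was a TGTGGT that begins 73 bases before the downstream start of Itga3. Neither motif is in the windows of Itga1, Itga2, Itga5, Itgav, Itgb1 and Itgb8, nor before the upstream start of Itga3. All 250 bases of the Itgb8 window and 34 of those before the upstream start of Itga3 are annotated as exon, so the Itgb8 window holds no sequence outside exons. Of all 32851 promoter windows of this length, 18.6% hold at least 1 of the 2 motifs. The counts are per gene and do not show which Itga3 start was used, and sites farther away were not searched.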

How the data were processed

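Total RNA of 6 DRG or tumor samples was amplified (Ovation RNA-Seq System v2), made into libraries (Nextera XT) and sequenced. Per the labels and the methods, the authors called bases with CASAVA 1.4, aligned reads to mm10 with TopHat and counted reads per gene with featureCounts. The deposited values are raw counts per gene, not normalized. Annotation and strandedness of the counting are not given in the sources used here. Groups came from the genotype labels. Replicate numbers follow accession order and pair nothing. Each title carries a number of its own, as separate animals would, but no source used here says that each library is 1 mouse, and some titles carry another number of the genotype than the matching deposited table. The genotype is not affected, but it is uncertain whether the other run belongs to floxed replicate 2 or 3. The limma-voom p-values set the difference between groups against the spread between these libraries. The permutation p-values set it against other assignments of the libraries to the groups.

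The limma-voom fit compared the genotypes with no other term (limma 3.58.1 and edgeR 4.0.16 in R 4.3.3), after filterByExpr at its defaults and with TMM factors. The Benjamini-Hochberg adjustment ran over all 15652 genes tested. Log2 ratios used a prior count of 0.5, and differences between them were tested by exact permutation, two-sided. Intervals on fold changes are 95% intervals of the fit. Exon lengths came from GENCODE M21 and promoters from RefSeq. Figures were drawn with matplotlib 3.10.9. The fits were tested on simulated data, but no outcome of that is given here, so it bears on no value above.

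The members, the gene lists and the tests were chosen with earlier results of these data known. All 10 genes are named. From the lists of other integrin subunits, adaptors, ligands and laminin receptors, genes past both thresholds were named by size, at most 4 per direction. Their mean log2 CPM had to be 3 or more. The cell type marker lists did not follow this rule, and only some of their genes past both thresholds are named, besides defining markers. Genes named outside this rule (partners, adaptors and other values given for context) were chosen after their values were seen. Genes were matched by symbol, older symbols through RefSeq synonyms. Alternatives were DESeq2 1.42.0 or edgeR's quasi-likelihood test as the tool, scaling by library size or by DESeq2's factors, no filter or CPM above 1 in 3 libraries, quality weights, and fits without each library in turn. Leaving out both libraries rich in muscle genes was added after seeing the data.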

Additional observations from a re-analysis of the deposited data

How the results depend on the processing

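Itga1, Itga3, Itga5, Itgav and Itgb1 kept their direction and an adjusted p below 0.05 in the 7 alternatives of test, scaling, filter and weights, and without both libraries rich in muscle genes (Itga1 −1.27, Itga3 1.47, Itga5 −1.23, Itgav −0.83, Itgb1 −0.69). Their calls depended on single libraries. Leaving out each library in turn gave log2 fold changes of −1.19 to −0.96 for Itga1, 0.91 to 1.31 for Itga3, −1.75 to −1.30 for Itga5, −0.94 to −0.69 for Itgav, −0.68 to −0.54 for Itgb1, −0.89 to −0.37 for Itga2 and −0.81 to −0.45 for Itgb8, and values of both signs for Itga6 (−0.08 to 0.07) and Itgb4 (−0.26 to 0.08). Itgb4 was also positive, at 0.20, without both libraries rich in muscle genes, where Itga2 passed (−0.86). Itgb8 passed in DESeq2 (−0.67) and with quality weights (−0.78). The cause was not tested.

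The counts moved more than the estimates. Leaving out each library gave 0 to 1 members higher and 1 to 2 lower past both thresholds, 0 to 1 and 1 to 6 by the adjusted p alone, and 2 to 8 other subunits lower past both thresholds (2 to 9 by the adjusted p). Over all genes it gave 181 to 1304 higher and 181 to 1028 lower past both thresholds, and 193 to 1654 and 190 to 1388 by the adjusted p, each lowest without Nf1fl/fl;DhhCre replicate 1. By the adjusted p, 1287 genes were lower, against 2088 in DESeq2 and 847 without both libraries rich in muscle genes. The median of all genes lay between −0.06 and 0.06 in every setting. With the longest coding transcript, 11 of the 20 levels per kb moved by more than the SD between libraries. None of the values relative to Itgb1, Itga6 or the Schwann cell markers could reach a p below 0.1 in any setting. All 10 genes stood far above the level of 3 counts in every library. No paired analysis was possible because the replicate numbers follow accession order and the labels pair no mice.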
